A study of Sus scrofa with 220 samples.

Results

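EZH2, EED and SUZ12 encode the core of Polycomb repressive complex 2 (PRC2), and their transcripts were followed through 7 cell type labels of the early pig embryo. The members were taken by symbol, as the rows whose Ensembl pig identifier carries one of the 3 names, which gave 3 of the 22840 gene entries. These were EZH2 (ENSSSCG00000028840), EED (ENSSSCG00000014915) and SUZ12 (ENSSSCG00000017744). PRC2 places methyl groups on lysine 27 of histone H3, and the trimethylated form, H3K27me3, marks genes that are kept silent, among them many regulators of development. EZH2 is the methyltransferase subunit, EED binds existing H3K27me3 and stimulates the enzyme, and SUZ12 is the scaffold that holds the complex together and receives its accessory subunits. In pluripotent cells PRC2 is known for holding lineage genes in a silent state that can later be reversed, and in females H3K27me3 also gathers on the inactive X chromosome.

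The data are Smart-seq2 transcriptomes, which cover polyadenylated transcripts from end to end, of 220 cells from 28 embryos of crossbred Large White and Landrace sows. The labels gave 47 morula cells, 24 inner cell mass (EB ICM) and 28 trophectoderm (EB TE) cells of the early blastocyst, 25 epiblast (LB EPI) and 36 hypoblast (LB HYPO) cells of the late blastocyst, and 48 epiblast (Sph EPI) and 12 hypoblast (Sph HYPO) cells of the spherical embryo. All embryos were untreated and developed in the sow, LB cells were taken after the trophectoderm had been removed by immunosurgery, and EPI and HYPO of Sph embryos were separated by hand, so that no TE of the LB or Sph stage is included. The letters in a cell's identifier were taken as its embryo, and cells of 1 embryo under 1 label were summed, which gave 8 morula, 7 ICM, 10 TE, 4 LB EPI and 5 LB HYPO sums, with 4 of Sph EPI and 3 of Sph HYPO.

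Depth ran from 1012604 to 5696373 counts on genes per cell, with the lowest median, 1660326, in LB HYPO and the highest, 2235586, in Sph EPI. A typical cell had counts on 4939 genes in TE and on 6558 in Sph EPI, the lowest and highest medians of the labels. The labels were checked against marker genes. The hypoblast markers GATA4, GATA6, PDGFRA and NID2 were each above 1 TPM in most cells of LB HYPO and of Sph HYPO, and in most cells of neither EPI. GATA4 had no signal in any cell of LB EPI or Sph EPI. Of 6 trophectoderm markers, 5 were above 1 TPM in most TE cells, 2 in most ICM cells and 4 in most Sph HYPO cells, while CDX2 was at 0 in all ICM, EPI and HYPO cells. Their sum had a median of 44091 TPM in TE but was as low as 0.37 TPM in a TE cell, so the markers did not bear out the label in every cell. In Sph HYPO this sum had a median of 30636 TPM and ran from 15500 to 70511, within the TE range, so it did not separate TE from Sph HYPO. Of 4 epiblast and ICM markers, PRDM14, NODAL, KLF4 and KLF17, 2 were above 1 TPM in most cells of morula, ICM, LB EPI and Sph EPI, 1 in most TE cells and 0 in most cells of either HYPO, and NODAL was at 0 in all morula, ICM, TE and LB HYPO cells. NANOG, SOX2 and POU5F1 are not analysed here.

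EZH2 transcripts were present in all cells of the morula and were lowest in the epiblast of the spherical embryo. Levels are given as TPM, which corrects for gene length and scales every cell to the same total, averaged over the cells of each embryo. In the morula the 8 embryos ran from 83.4 to 169.9 TPM with a median of 140.3, and the mean was 138.7 ± 28.5 (SD, n = 8). In EB ICM the lowest embryo had 69.1 TPM, the median was 113.2 and the highest 167.7, with a mean of 115.1 ± 35.97 (SD, n = 7). Of the 7 ICM values, 5 lay within the morula range and 2 below it.

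In TPM, EZH2 varied most between embryos in TE, where the level ran from 0 to 268.9 TPM with a median of 77.9 and a mean of 90.4 ± 80.0 (SD, n = 10). Both ends of this range were single cells, of embryos AF and E6-ER. The 1 AF cell had no EZH2 count, and 3 counts in that cell would correspond to 1.34 CPM (counts scaled to a common library total, with no length correction), a limit set by counting error only. In LB EPI the 4 embryos had 3.47 (AN), 37.4 (AO), 90.1 (AQ) and 107.2 TPM (AP). The AN value came from 2 cells, and the 2 embryos with the most cells, AQ and AP, lay within the ICM range. In sums of at least 2 cells LB EPI varied more than TE, with SDs of 2.18 and 0.76 in log2(CPM + 1).

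In LB HYPO EZH2 reached 52.0 (AO), 63.4 (AL), 65.7 (AM), 75.5 (AN) and 97.5 TPM (AP). In Sph EPI the values were 2.89 (F), 11.9 (C), 15.5 (D) and 21.2 TPM (E), with a mean of 12.9 ± 7.69 (SD, n = 4). In Sph HYPO they were 70.1 (C), 78.1 (E) and 107.2 TPM (F), from 2, 2 and 8 cells, with a mean of 85.2 ± 19.5 (SD, n = 3). All 4 Sph EPI values lay below all 3 Sph HYPO values, all 5 LB HYPO values and all morula and ICM values. The share of all genes separated in this way was not computed.

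The same contrast appeared cell by cell. EZH2 exceeded 1 TPM in 47 of 47 morula cells and in 23 of 24 ICM cells, a share of 95.8% (exact 95% interval 78.9 to 99.9). It did so in 16 of 48 Sph EPI cells, or 33.3% (20.4 to 48.4), and in 10 of 12 Sph HYPO cells, or 83.3% (51.6 to 97.9). Sph EPI cells had the highest median depth of the labels, and 26 of the 48 had no EZH2 count. The shares in the remaining labels were 75% in TE, 76% in LB EPI and 86.1% in LB HYPO. Intervals cover counting error only, and PCR copies of 1 molecule are not told apart.

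**Figure D1:**
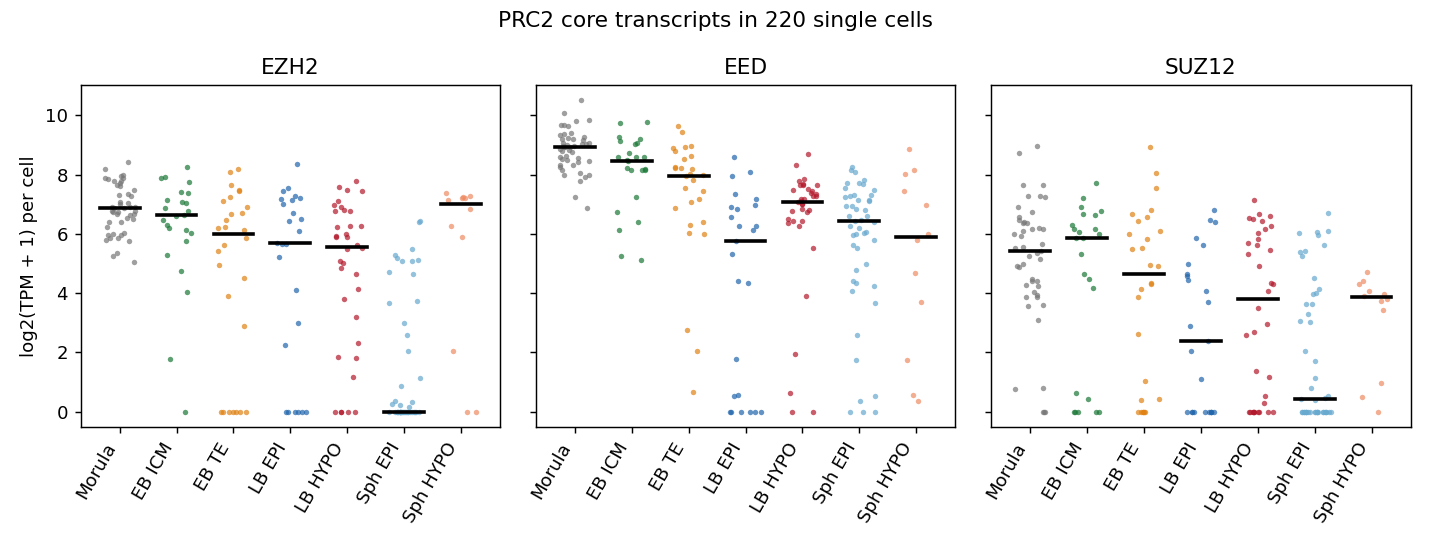
Each point is 1 of the 220 cells, placed by its log2(TPM + 1) for EZH2, EED or SUZ12 in each of the 7 labels, and black bars are medians over cells. The EZH2 median was 115.9 TPM in the morula and 0 in Sph EPI, the only label with an EZH2 median of 0, and the EED medians were highest in the morula, at 484.6 TPM.

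EED, the reader of H3K27me3, was the most abundant of the 3 on this length-corrected scale. Its level was highest in the morula, where the 8 embryos ran from 355.9 to 702.8 TPM with a median of 481.3 and a mean of 497.5 ± 110.5 (SD, n = 8). In EB ICM the embryos ran from 33.3 to 530.1 TPM with a median of 176.2 and a mean of 268.7 ± 189.1 (SD, n = 7). The ICM embryos fell apart by their number of cells. AC, AF and AA, with 4 to 7 cells each, had 530.1, 452.7 and 400.1 TPM, while AE, AD, AG and AI, with 1 to 3 cells each, had 176.2, 151.7, 137.0 and 33.3 TPM. The part of cell number in this spread was not tested.

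In TE, EED ran from 67.2 to 501.2 TPM over the 10 embryos, with a median of 293.3 and a mean of 282.6 ± 129.3 (SD, n = 10). In LB EPI it was 54.1 (AQ), 57.9 (AO), 115.3 (AN) and 117.7 TPM (AP), with a mean of 86.2 ± 34.99 (SD, n = 4). In LB HYPO the values were 55.3 (AP), 71.9 (AN), 128.0 (AL), 137.8 (AM) and 155.7 TPM (AO). Every LB embryo lay below every morula embryo, and the share of all genes separated in this way was not computed.

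The Sph EPI values of EED stood close together, at 83.9 (F), 93.7 (D), 104.7 (E) and 119.9 TPM (C), with a mean of 100.6 ± 15.4 (SD, n = 4). Those of Sph HYPO were 50.3 (F), 155.1 (E) and 375.6 TPM (C) and enclosed the EPI values. In ICM, TE, LB HYPO and Sph EPI, EED exceeded 1 TPM in a larger share of cells than either other member. EZH2 tied with it in the morula and Sph HYPO and was ahead in LB EPI, at 76%. EED was above 1 TPM in all 47 morula and all 24 ICM cells, in 27 of 28 TE cells and in 43 of 48 Sph EPI cells (89.6%, exact 95% interval 77.3 to 96.5). The lowest share was that of LB EPI, with 17 of 25 cells (68.0%, 46.5 to 85.1).

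SUZ12, the scaffold, had lower levels and larger gaps between cells. The 8 morula embryos ran from 23.5 to 247.9 TPM with a median of 73.4, and the mean was 87.6 ± 67.9 (SD, n = 8). The value of 247.9 TPM came from embryo V, in which 1 of 2 cells exceeded 1 TPM. The 7 ICM embryos ran from 30.1 to 82.3 TPM with a median of 57.0, and the 10 TE embryos from 8.31 to 107.0 TPM with a median of 46.7.

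In LB EPI, SUZ12 was 0 (AN), 17.5 (AQ), 21.7 (AO) and 30.8 TPM (AP). In LB HYPO it was 0 (AN), 20.8 (AO), 39.04 (AM), 55.0 (AL) and 115.5 TPM (AP). Both zeros belonged to embryo AN, whose 2 EPI and 3 HYPO cells held no SUZ12 count, and 3 counts would correspond to 0.81 and 0.63 CPM in these sums.

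At the spherical stage, SUZ12 was low in both lineages, at 9.97 (F), 12.1 (C), 17.5 (D) and 25.8 TPM (E) in Sph EPI and at 7.82 (E), 11.4 (F) and 19.2 TPM (C) in Sph HYPO. These groups overlapped. SUZ12 exceeded 1 TPM in 42 of 47 morula cells (89.4%, exact 95% interval 76.9 to 96.5), in 21 of 48 Sph EPI cells (43.8%, 29.5 to 58.8) and in 9 of 12 Sph HYPO cells (75%, 42.8 to 94.5).

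**Figure D2:**
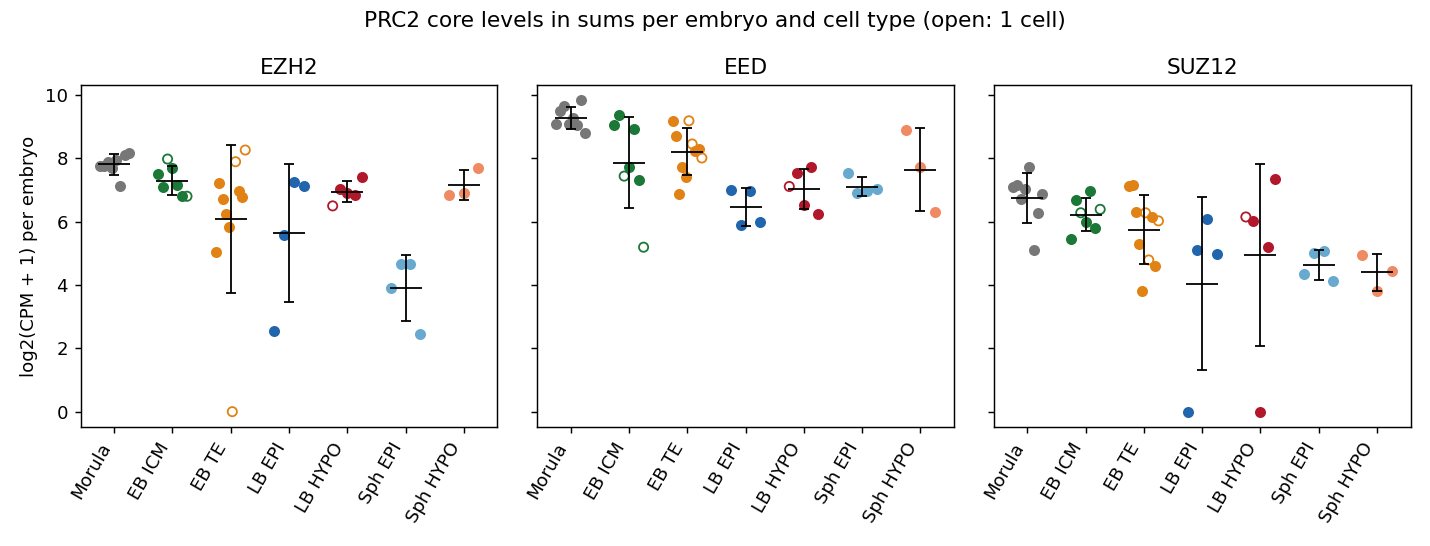
Each point is the log2(CPM + 1) of EZH2, EED or SUZ12 in 1 sum of the cells of an embryo under a label, open where the sum is a single cell, and black marks give the mean and SD over embryos. EZH2 in Sph EPI lay at 3.92 ± 1.04 against 7.80 ± 0.33 in the morula, and the zeros of SUZ12 are the EPI and HYPO sums of embryo AN.

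Ordered by mean TPM over embryos, the morula stood first for all 3 members. EZH2 was next highest in ICM, TE, Sph HYPO and LB HYPO, then in LB EPI, and last in Sph EPI. Each label differed from the next by less than the larger SD of the pair, including LB EPI and Sph EPI, 46.7 TPM apart with an SD of 47.8 TPM in LB EPI. For EED it was TE, ICM, Sph HYPO, LB HYPO, Sph EPI and LB EPI, and the gap of 214.9 TPM between morula and TE, 1.66 times the larger SD, was the only step between neighbours above the spread between embryos. For SUZ12 the order after the morula was ICM, TE, LB HYPO, LB EPI, Sph EPI and Sph HYPO, and no step exceeded the larger SD.

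The 3 transcripts were not kept in one proportion. EED exceeded EZH2 in all 8 morula embryos, with a ratio of mean TPM of 3.59, and in all 4 Sph EPI embryos, with a ratio of 7.80. In LB EPI and LB HYPO the ratios were 1.45 and 1.55. EZH2 exceeded SUZ12 in 7 of 8 morula, 7 of 7 ICM and 3 of 3 Sph HYPO embryos, but in 0 of 4 Sph EPI embryos, where the ratio of EZH2 to SUZ12 was 0.79. In single cells, EED was the highest of the 3 in 163 of 220 cells, EZH2 in 43 and SUZ12 in 13. The cells in which EZH2 was highest included 12 of 25 in LB EPI and 7 of 12 in Sph HYPO, and 3 of 48 in Sph EPI.

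All 3 members exceeded 1 TPM together in 117 of 220 cells. This held for 42 of 47 morula cells (89.4%), 17 of 24 ICM cells (70.8%), 17 of 28 TE cells (60.7%) and 20 of 36 LB HYPO cells (55.6%). It held for 6 of 25 LB EPI cells (24%), 8 of 48 Sph EPI cells (16.7%) and 7 of 12 Sph HYPO cells (58.3%). The 4 cells with none of the 3 above 1 TPM were all Sph EPI cells. Over the cells of a label, Spearman's rho between a pair of members ran from -0.43, for EZH2 and EED in the 12 Sph HYPO cells, to 0.37, for EED and SUZ12 in the same cells. These cells share embryos and differ in depth, and the values are given as a description.

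Differences between labels were tested on the embryo sums with the quasi-likelihood test of edgeR. It was run over the 14721 genes that exceeded 1 TPM in 3 or more cells, and p-values were adjusted by Benjamini and Hochberg's method and called under 0.05. All 3 members passed this filter. Fold changes are ratios of CPM, and the p-values measure the spread between embryos as read from the cell identifiers. The labels do not name the sow of an embryo, so litters could not be accounted for, and the main tests had no term for the embryo or its sex. Over all 7 labels at once, 37.7% of the tested genes differed. EED differed between labels (adjusted p = 0.00031 from edgeR), as did EZH2 (adjusted p = 0.026 from edgeR), while SUZ12 did not pass the threshold (adjusted p = 0.24 from edgeR). Within the cells of the first 4 and of the last 4 numbered library pools alone, EED kept its call (adjusted p = 0.0085 and 0.0030 from edgeR) and EZH2 did not (adjusted p = 0.15 and 0.17 from edgeR).

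The study compared pluripotent cells of the early stages, the morula and ICM, with the epiblast that follows. With the mean of morula and ICM set against the mean of LB EPI and Sph EPI, all 3 core members were higher in the early cells. The early side held 15 sums and the epiblast 8. The comparison called 21.8% of all tested genes, and 7.40% of them as higher in the early cells. EZH2 was 5.05-fold higher, a log2 fold change of 2.34 (SE 0.43, adjusted p = 0.00038 from edgeR). EED was 3.98-fold higher, with 1.99 on the log2 scale (SE 0.36, adjusted p = 0.00034 from edgeR). SUZ12 was 3.34-fold higher, with 1.74 (SE 0.56, adjusted p = 0.028 from edgeR). The members were named with results of these data in view, so the count of 3 is not independent evidence.

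The early and epiblast sums overlapped for each member. For EZH2 all 4 Sph EPI sums, at most 4.66 on the log2(CPM + 1) scale, lay below the lowest early sum, 6.80, while LB EPI sums AP and AQ, at 7.24 and 7.12, lay within the early range. How many of all genes set Sph EPI apart from the early sums was not computed. For EED the overlap was through the ICM sums of embryos AI, a single cell at 5.19, AG at 7.30 and AD at 7.43. EZH2 and EED kept their calls within the first 4 pools (log2 fold changes of 2.01 and 1.95) and within the last 4 (2.43 and 2.23). SUZ12 was called within the last 4 pools (2.24, adjusted p = 0.034 from edgeR) and not within the first 4 (0.96, adjusted p = 0.71 from edgeR). SUZ12 also lost its call without the morula embryo S, the LB EPI embryo AQ or any 1 of the Sph EPI embryos C, D, E and F, with adjusted p from 0.051 to 0.078 in edgeR, and with all 7 labels in 1 model (adjusted p = 0.070 from edgeR).

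The steps between neighbouring stages gave no call for a member in the main edgeR test. At an unadjusted p under 0.05 they held EED in the comparisons of morula with ICM and TE and of ICM with LB EPI and LB HYPO. In this order, 3452, 3075, 3328 and 3314 of all 14721 tested genes were under 0.05 there. They also held EZH2 between LB EPI and Sph EPI, where 1999 genes were under 0.05. DESeq2 called no member in these comparisons. Between morula and ICM, a comparison that called 2.45% of genes, the log2 fold changes were 0.42 for EZH2 (SE 0.27), 0.92 for EED (SE 0.42) and 0.56 for SUZ12 (SE 0.40), with adjusted p from 0.18 to 0.49 in edgeR. Between morula and TE, where 0.808% were called, they were 0.94 for EZH2 (SE 0.61), 0.96 for EED (SE 0.30) and 0.83 for SUZ12 (SE 0.52). The EED value had an adjusted p of 0.090 from edgeR. All 6 values had the morula as the higher group, and the morula range overlapped the others in each.

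From ICM to LB EPI, which called 2.91% of genes, EED had the largest difference of the members, with 1.74 (SE 0.64, adjusted p = 0.15 from edgeR). It passed the threshold in sums of at least 2 cells, where the log2 fold change was 2.12 (adjusted p = 0.034 from edgeR), and with all 7 labels in 1 model (adjusted p = 0.043 from edgeR). EZH2 gave 0.91 (SE 0.68) and SUZ12 1.21 (SE 1.02) in the same comparison. From ICM to LB HYPO, which called 2.10%, the values were 1.20 for EED (SE 0.57), 0.41 for EZH2 (SE 0.40) and 0.26 for SUZ12 (SE 0.92), and none passed.

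From LB EPI to Sph EPI, where 0.156% of genes were called, no member passed the threshold. EZH2 was lower in Sph EPI by a log2 fold change of 2.38 (SE 0.96, adjusted p = 0.36 from edgeR), EED was higher there by 0.51 (SE 0.41) and SUZ12 lower by 0.44 (SE 1.22). Without LB EPI embryo AP the SUZ12 value turned to -0.19, higher in Sph EPI. The EZH2 groups overlapped through the 2 cells of LB EPI embryo AN. From LB HYPO to Sph HYPO, where 0.163% were called, EZH2 gave -0.28 (SE 0.62), EED -0.98 (SE 0.63) and SUZ12 1.59 (SE 1.52), again with no call. By the paper's sex calls, made from Y chromosome transcripts, all Sph HYPO cells were male and most LB HYPO cells female. Stage and sex cannot be told apart in this comparison.

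**Figure D3:**
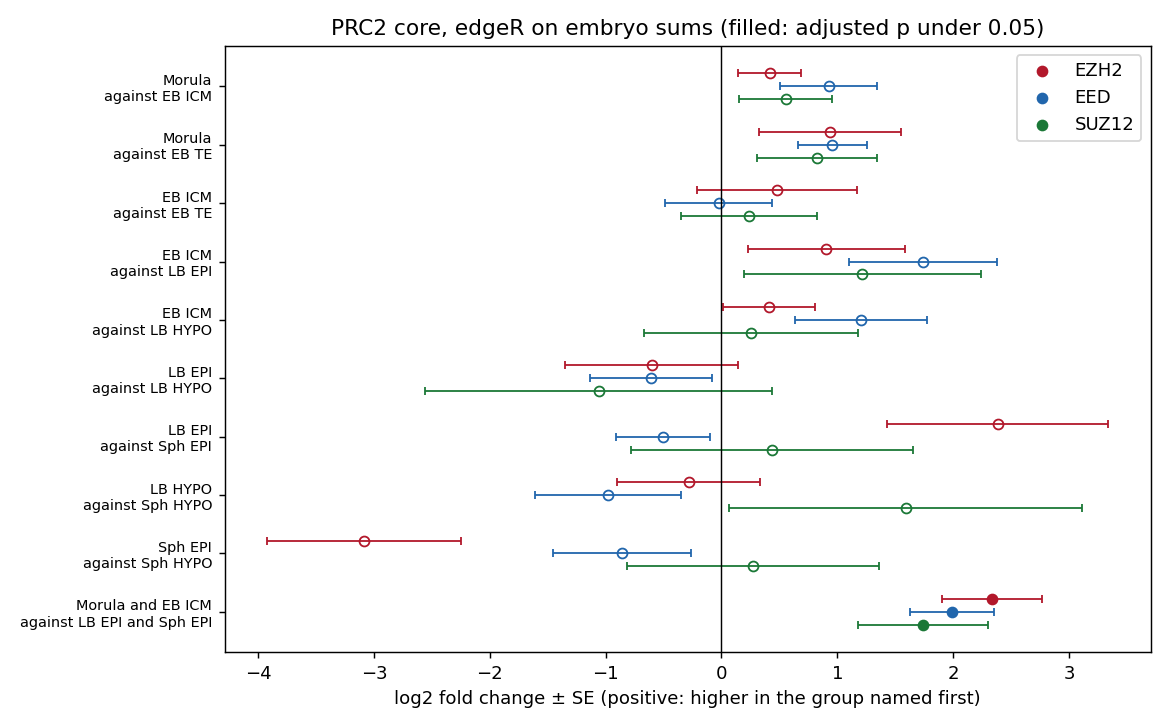
Points are log2 fold changes with SE from edgeR on embryo sums for EZH2, EED and SUZ12 in 10 comparisons, positive where the group named first was higher and filled where the adjusted p was under 0.05. The filled points are the 3 members in the comparison of morula and ICM with LB EPI and Sph EPI, and the point farthest to the left is EZH2 in Sph EPI against Sph HYPO, at -3.09.

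Between the lineages of 1 stage, the largest difference of the core was that of EZH2 in the spherical embryo. EZH2 was 8.49-fold lower in Sph EPI than in Sph HYPO, a log2 fold change of -3.09 (SE 0.84). The adjusted p of 0.13 from edgeR did not pass the threshold in a comparison that called 1.13% of genes. DESeq2 gave -3.21 and an adjusted p of 0.00081, but it called 1437 of 12421 genes here, against 167 of 14721 with edgeR. In all 3 embryos with both lineages EZH2 was lower in EPI, at 11.9 against 70.1 TPM in C, 21.2 against 78.1 TPM in E and 2.89 against 107.2 TPM in F. The HYPO values of C and E came from 2 cells each, at 140.3 and 0 TPM in C and at 153.1 and 3.14 TPM in E. That of F came from 8 cells. EED differed by -0.86 (SE 0.60) and SUZ12 by 0.27 (SE 1.09), and neither passed. The median over all tested genes in this comparison was 0.57, towards EPI, and ran from 0.35 without Sph EPI embryo F to 1.54 without Sph HYPO embryo F.

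In the late blastocyst, EPI and HYPO did not differ past the threshold for any member, with log2 fold changes of -0.60 for EZH2 (SE 0.75), -0.61 for EED (SE 0.53) and -1.06 for SUZ12 (SE 1.50), in a comparison that called 1.92% of genes. Of 3 embryos with both lineages, EZH2 was lower in EPI in 2. The change of the EPI to HYPO difference from LB to Sph was tested as an interaction, which called 0.0408% of genes. For EZH2 it was 2.56 on the log2 scale (SE 1.12, adjusted p = 0.41 from edgeR), so a difference between the stages was not shown. In the early blastocyst, ICM and TE differed by 0.48 for EZH2 (SE 0.69), -0.03 for EED (SE 0.46) and 0.24 for SUZ12 (SE 0.59), with 0.754% of genes called and no member below an unadjusted p of 0.05. In the 7 embryos with both cell types, SUZ12 was higher in ICM in 6, EZH2 in 5 and EED in 2.

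**Figure D4:**
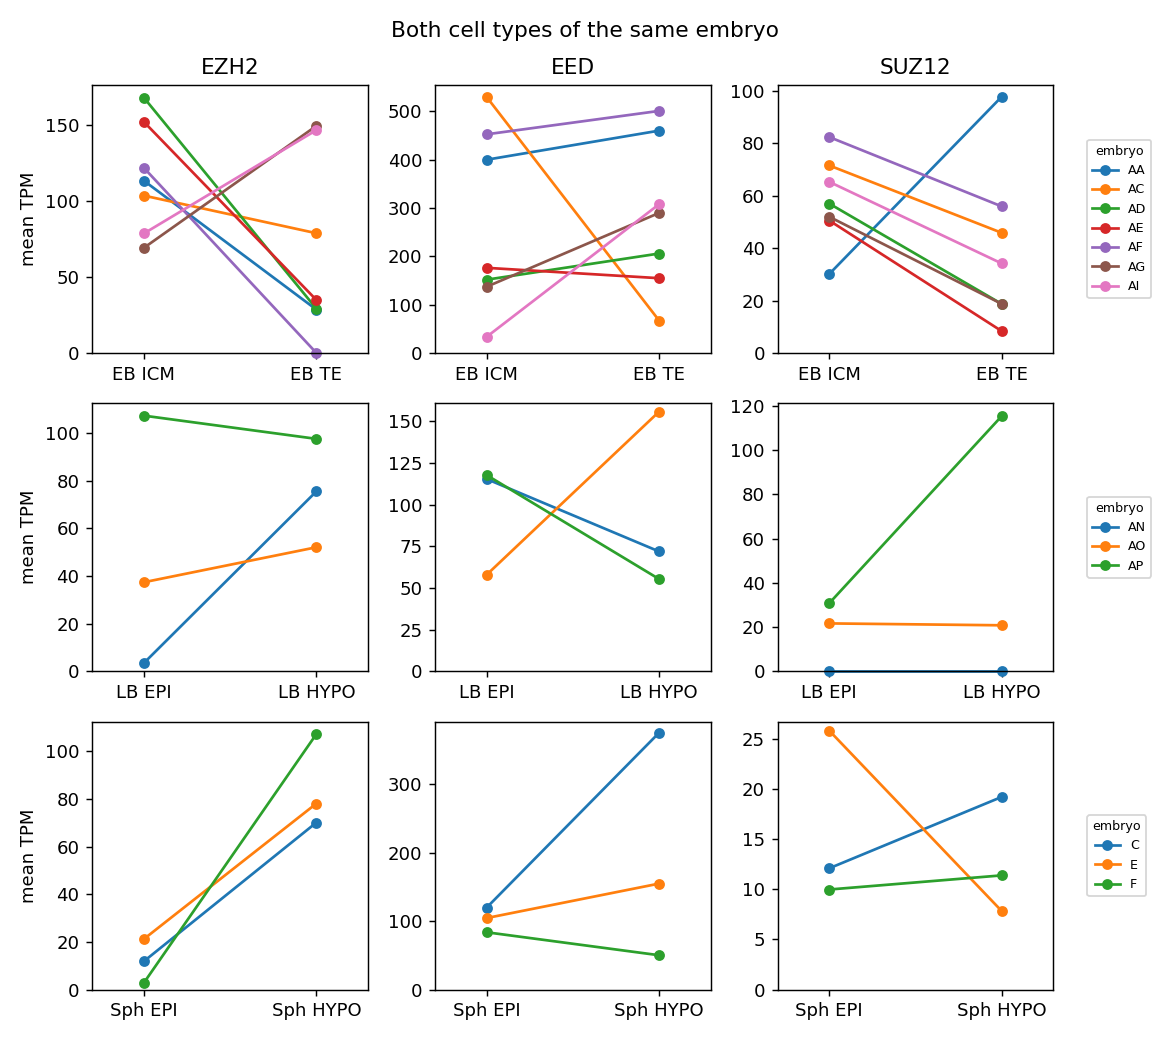
Each line joins the mean TPM of EZH2, EED or SUZ12 in both cell types of the same embryo, for ICM and TE, LB EPI and LB HYPO, and Sph EPI and Sph HYPO, with vertical axes starting at 0 and scaled separately. EZH2 was lower in EPI in 3 of 3 spherical embryos, and SUZ12 was at 0 in both lineages of embryo AN. The Sph HYPO values of embryos C and E are of 2 cells each.

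Subunits that join the core were read from a list of PRC2 associated genes, of which 9 had an entry and were tested. Between the early cells and the epiblast, where 21.8% of all genes were called, AEBP2, MTF2 and PHF19 were called. AEBP2, which binds SUZ12 in one form of the complex, was 3.73-fold higher in the early cells (adjusted p = 0.00051 from edgeR). Its level was 251.5 ± 139.7 TPM (SD, n = 8) in the morula, 210.6 ± 179.3 (SD, n = 7) in ICM, 69.5 ± 35.4 (SD, n = 4) in LB EPI and 53.9 ± 22.4 (SD, n = 4) in Sph EPI. AEBP2 was also the 1 gene of the list called between ICM and LB HYPO, where it was 7.92-fold more abundant in ICM cells (adjusted p = 0.011 from edgeR), though not in sums of at least 2 cells (adjusted p = 0.053 from edgeR) or within either set of pools. MTF2, a Polycomb-like subunit that helps to bring PRC2 to CpG-rich DNA, went the other way and was 1.85-fold higher in the epiblast (adjusted p = 0.044 from edgeR), with 39.95 ± 14.9 TPM (SD, n = 8) in the morula, 62.96 ± 14.2 (SD, n = 7) in ICM, 69.2 ± 52.7 (SD, n = 4) in LB EPI and 131.7 ± 22.5 (SD, n = 4) in Sph EPI. MTF2 lost its call under 7 of 11 other settings and without any 1 of 6 embryos (ICM AA, AC and AF, LB EPI AN and AQ, morula ER), with adjusted p up to 0.60 in edgeR or limma. PHF19, its relative, was called as higher in the epiblast (adjusted p = 0.015 from edgeR), but it had no count in any morula or ICM sum and counts in 2 LB EPI and 2 Sph EPI cells only, and no fold is given. It passed the filter on low values through EPI cells alone, and its call supports nothing about the list. Without LB EPI embryo AP its adjusted p was 1 in edgeR.

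EZH1, the alternative methyltransferase, was not called between early cells and epiblast. It had a count in 7 of 46 morula cells, 2 of 24 ICM cells, 14 of 48 Sph EPI cells and 2 of 12 Sph HYPO cells. Its level was 12.6 ± 11.5 TPM (SD, n = 4) in Sph EPI and 16.8 ± 27.9 (SD, n = 3) in Sph HYPO. The Sph HYPO embryos had a median of 1.34 TPM and a highest value of 49.1 TPM. EZH1 differed over the 7 labels (adjusted p = 0.041 from edgeR), as did JARID2, an accessory subunit that helps PRC2 engage chromatin (adjusted p = 0.034 from edgeR). That test called 4 of the 9 listed genes, or 44.4%, beside 37.7% of all genes. JARID2 had 65.1 ± 53.2 TPM (SD, n = 8) in the morula and 1.56 ± 1.72 (SD, n = 5) in LB HYPO.

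PRC1, the partner complex that ubiquitinates histone H2A, was read from 16 tested genes. Of these, 6 were called between early cells and epiblast, or 37.5% beside 21.8% of all genes, with 2 higher in the early cells and 4 in the epiblast. The list's median was -0.24, beside -0.18 over all genes. USP7, a deubiquitinase found with variant PRC1, was 4.43-fold higher in the early cells (adjusted p = 0.0011 from edgeR), and RYBP, which defines variant PRC1, 3.46-fold (adjusted p = 0.0053 from edgeR). RNF2, the catalytic ubiquitin ligase of PRC1, was 4.10-fold higher in the epiblast (adjusted p = 0.0045 from edgeR), with 89.1 ± 7.72 TPM (SD, n = 4) in Sph EPI. PHC1, a subunit of canonical PRC1, was 11.5-fold higher in the epiblast (adjusted p = 0.0058 from edgeR), with a median over embryos of 13.3 TPM in the morula, 0.15 in ICM, 72.8 in LB EPI and 65.0 in Sph EPI. Within the last 4 pools alone, RNF2 and RYBP kept their directions but not their calls (adjusted p = 0.16 and 0.12 from edgeR), as did USP7 within the first 4 (adjusted p = 0.12 from edgeR).

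Enzymes that reverse these marks, the H3K27 demethylases and the H2AK119 deubiquitinase subunits, gave 5 tested genes and 0 calls between early cells and epiblast by edgeR, with 0 also at an unadjusted p under 0.05 and 0 by DESeq2. Their median log2 fold change was 1.05, beside -0.18 over all genes. In this list 1 gene, ASXL1, a partner of the deubiquitinase BAP1, differed over the 7 labels (adjusted p = 0.013 from edgeR). That was 20% of the list, beside 37.7% of all genes in that test. Outside the comparison of early cells with epiblast, none of these 3 lists had a call in any pairwise comparison, except AEBP2 between ICM and LB HYPO. In these comparisons at most 4 genes of a list had an unadjusted p under 0.05, and DESeq2 called at most 3. The 4 were of the 16 PRC1 genes, between LB EPI and LB HYPO and between Sph EPI and Sph HYPO. Of all 14721 genes, 2943 and 2236 were under 0.05 there. The 3 were PRC1 genes between ICM and LB EPI, where DESeq2 called 1370 of 12635 genes.

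**Figure D5:**
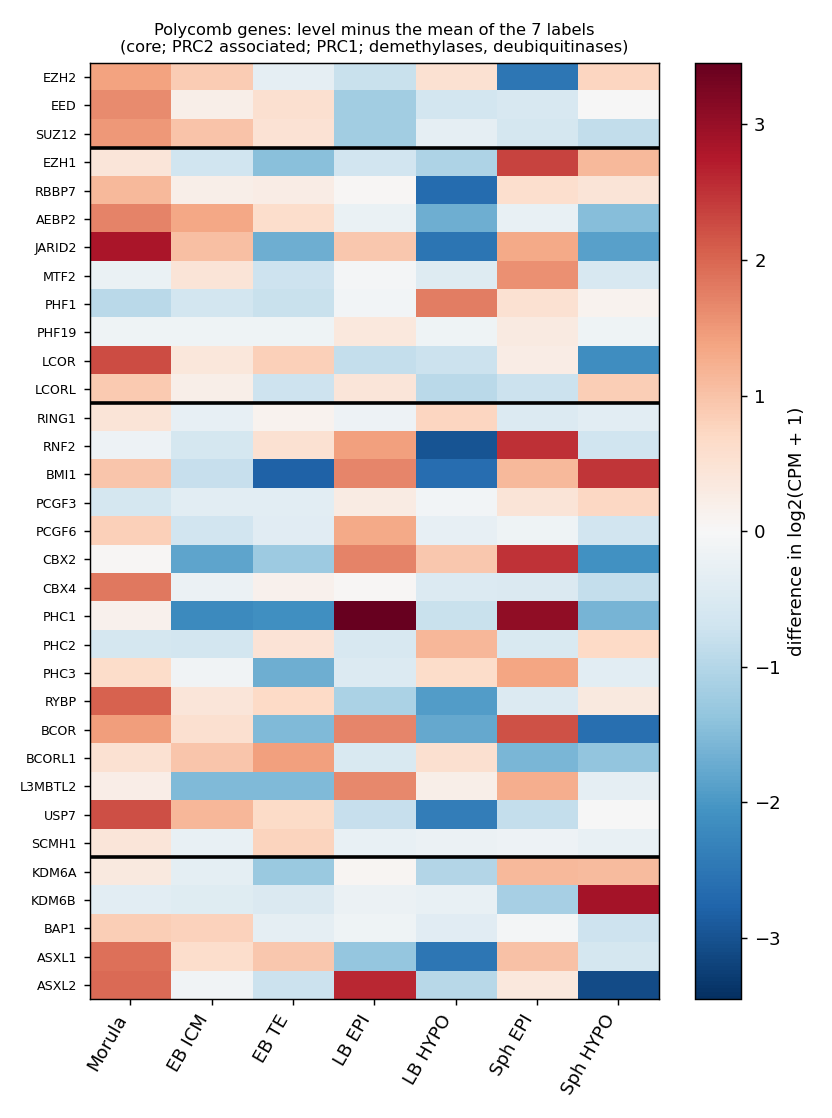
Rows are the tested genes of the core, the PRC2 associated list, PRC1 and the demethylases and deubiquitinases, columns the 7 labels, and colour the mean log2(CPM + 1) over embryos minus the mean of the labels for that gene, red above and blue below. EZH2 is lowest in Sph EPI, where RNF2, PHC1, CBX2 and MTF2 are above their mean.

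Genes whose levels ran most like each member were sought among 9410 named genes over 35 sums of at least 2 cells, by Pearson's r of log2(CPM + 1). For EZH2 they were CPPED1 (r = 0.76), DEGS1 (0.75), GATA6 (0.74), GNPTAB (0.74) and PHYHD1 (0.72). GATA6, a hypoblast transcription factor, had 289.3 ± 133.5 TPM (SD, n = 8) in the morula, 1.52 ± 3.05 (SD, n = 4) in Sph EPI and 47.4 ± 56.5 (SD, n = 3) in Sph HYPO. For EED they included ELF1 (0.75), RIMKLB (0.75) and ETNPPL (0.71). ETNPPL, an enzyme that breaks down phosphoethanolamine, had 1026 ± 327.8 TPM (SD, n = 8) in the morula and 0.015 ± 0.031 (SD, n = 4) in Sph EPI. For SUZ12 they were RBM6 (0.78), SUPT5H (0.75), PRPF4 (0.74), SOAT1 (0.73) and NRDC (0.72).

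Among the members themselves, EED stood at rank 399 for EZH2 (r = 0.40) and SUZ12 at rank 108 (r = 0.54), and SUZ12 stood at rank 198 for EED (r = 0.50). With Spearman's rho, 4 of the first 5 genes were shared for EED and 0 for EZH2 and SUZ12. The sums share stages, embryos and library pools, and the coefficients are a description.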

How the data were processed

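Per the paper's methods, the authors trimmed reads with scythe and sickle, aligned them to pig genome v10.2 with HISAT2 2.1.0 (also in the submitters' processing notes), kept uniquely mapped reads and obtained counts with htseq-count on Ensembl genes. Cells with few gene reads, a high mitochondrial share or an outlying t-SNE position were removed by the authors. The raw counts were deposited without normalization, beside TPM values that the authors derived from them. In all, 11437 identifiers carried a symbol.

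Here counts were summed per embryo and label and tested with glmQLFit and glmQLFTest (edgeR 4.0.16, R 4.3.3, TMM). SE was computed as |log2 fold change| / √F. Alternatives used DESeq2 1.42.0 and limma 3.58.1, and tables scipy 1.17.1. The 1 morula cell AO23_e5 was assigned to no embryo and left out of the sums. Its letters, AO, are those of a late blastocyst embryo, at odds with its morula label, which was kept for the values per cell. The embryos of 2 cells, E6-ER2 and AP-ER2, are less certain. Cells of the same embryo are the same animal, per the identifiers. Residuals of same-embryo sums correlated at a median of 0.04 (7 ICM and TE pairs), 0.02 (3 LB pairs) and 0.06 (3 Sph pairs).

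The members and the gene lists were chosen with earlier results of these data known. Listed genes were named where called, up to 4 per list and comparison by lowest p, and JARID2, EZH1, ASXL1, GATA6 and ETNPPL were described after their values were seen. Some genes that the rules name are not reported here. No genome of the files' build was used, so no positions or sequences are given.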

Additional observations from a re-analysis of the deposited data

Results flagged for a closer look

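In 18 groups of 4 to 10 embryo sums, the lowest and highest values of each member were set against the rest of the group with Dixon's test at 95%, which flags about 1 group in 20 by chance. Only 2 groups held such a value, both for EZH2. Morula embryo W, a sum of 6 cells, had the lowest level of its group, 7.11 on the log2(CPM + 1) scale against 7.70 for the next and 8.16 for the highest, and its mean was 83.4 TPM. TE embryo AF had 0 against 5.03 for the next embryo, and this sum was 1 cell.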

How the results depend on the processing

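For the 3 members, 415 of 432 values with 1 embryo left out and 325 of 345 under other settings kept their direction and their side of the threshold. EZH2 and EED were called between early cells and epiblast in every one. SUZ12 there fell short with all 7 labels in 1 model (1.75, adjusted p = 0.070) and in the first 4 pools (0.96), and ran from 1.42 to 2.04 with 1 embryo left out. Over the 7 labels, EZH2 fell short in the first and last 4 pools (adjusted p = 0.15 and 0.17). EED between ICM and LB EPI gained a call in sums of at least 2 cells (2.12) and with all 7 labels in 1 model (1.79), and EZH2 between Sph EPI and HYPO with DESeq2 (-3.21).

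Reversals concerned values that were not called. EED between ICM and TE became 0.39 in sums of at least 2 cells and 0.63 in the last 4 pools, and ran from -0.31 to 0.17 with 1 embryo left out. In the first 4 pools SUZ12 became -0.87 between ICM and TE and -0.80 between ICM and LB HYPO. In the last 4 pools SUZ12 became 0.21 between LB EPI and HYPO and -0.17 between Sph EPI and HYPO, EED 0.23 between LB and Sph HYPO and 0.023 between Sph EPI and HYPO, and the interaction -0.83 for EED and 0.46 for SUZ12. With limma on TPM, EZH2 became 0.48 between LB and Sph HYPO, SUZ12 -1.11 between Sph EPI and HYPO, and the EED interaction -0.41. With 1 embryo left out, SUZ12 ran from -0.065 to 0.89 between ICM and LB HYPO and from -0.19 to 0.85 between LB and Sph EPI, EZH2 from -0.46 to 0.036 between LB and Sph HYPO, and the EED interaction from -0.48 to 0.77. The causes were not tested.

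With the embryo as a block, EZH2 between Sph EPI and HYPO was -3.52 (adjusted p = 0.61), and no call of a member changed. The block moved the number of called genes from 283 to 20 between LB EPI and HYPO and from 167 to 82 between Sph EPI and HYPO, and from 111 to 89 between ICM and TE. Other settings moved the counts further: between morula and ICM from 38 in the first 4 pools to 1205 with DESeq2, between LB EPI and Sph EPI from 7 in the last 4 pools to 828 with DESeq2, and between early cells and epiblast from 1979 in the first 4 pools to 3441 with limma. With 1 embryo left out, the count between Sph EPI and HYPO ran from 78 (without Sph EPI E) to 583, that between LB and Sph HYPO from 17 to 110 against 24, and that of the interaction from 0 to 165 against 6, each highest without Sph HYPO F. Omitting TMM moved the median over all genes between LB EPI and HYPO from 0 to 0.13. Of the shares of cells, 3 left their interval, EED in TE (100% with at least 1 count or thinned to 1000000 counts) and in Sph HYPO (100% with at least 1 count). Depth limits single cells with no count, and 6 of the 41 sums were single cells.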
